A study of Mus musculus with 6 samples.

Results

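The cyclin-dependent kinase (CDK) inhibitors and the retinoblastoma pocket proteins are brakes on entry into S phase, and 9 genes that encode them were followed in neural stem/progenitor cells (NSPCs) of the mouse. The genes were taken by name, Cdkn1b, Cdkn1c, Cdkn2a, Cdkn2b, Cdkn2c, Cdkn2d, Rb1, Rbl1 and Rbl2, and all 9 were found among the 17254 genes listed in any of the 6 RNA-seq libraries. The NSPCs are an immortalized culture derived from the neonatal subventricular zone, which the study describes as Ink/Arf null and as a mixed population. The libraries were made after 48 h without treatment (2 control libraries), with 5 µM paraquat (PQ), an agent that generates superoxide inside cells (2 libraries), or with 5 mM N-acetylcysteine (NAC), a thiol antioxidant (2 libraries). The study profiled them to find the signaling pathway behind the neurogenic decline under oxidative stress. A knockout genotype written "Ink/Ark" and the C57BL/6 strain are labelled on control library 1 and PQ library 1 alone, whose RNA was taken with NucleoSpin, whereas the other 4 libraries are labelled with TRIZOL extraction and carry no label of genotype or strain. The numbers only name the libraries and were not taken to pair them. The labels do not say that the libraries came from separate cultures, so the p-values measure the spread between these samples, which may be technical.

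INK4 inhibitors (p16Ink4a from Cdkn2a, and the products of Cdkn2b, Cdkn2c and Cdkn2d) bind CDK4 and CDK6 and keep them from D-type cyclins, whereas Cip/Kip inhibitors (p21, p27 and p57, from Cdkn1a, Cdkn1b and Cdkn1c) bind cyclin-CDK complexes, above all those of CDK2. Both act on the pocket proteins RB (Rb1), p107 (Rbl1) and p130 (Rbl2), which bind E2F factors and hold back E2F target genes until cyclin-dependent kinases phosphorylate them. In neural stem cells these brakes are known for their part in quiescence, in cell cycle exit and in the loss of self-renewal with age.

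The expected counts, which estimate the reads of a gene, summed to 9849392 and 10040827 in control libraries 1 and 2, to 10388731 and 9680436 in PQ libraries 1 and 2, and to 10698241 and 9907726 in NAC libraries 1 and 2. Levels are compared between genes as FPKM, which divides by transcript length and library total. Differences between groups were tested with edgeR's quasi-likelihood test on 11717 genes, those whose FPKM averaged 1 or more over the libraries, and a gene was called at a Benjamini-Hochberg adjusted p under 0.05 over all of these genes. Of the 9 genes, 8 passed this filter and Cdkn1c did not.

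The gene named by the genotype, Cdkn2a, encodes p16Ink4a and p19Arf from separate first exons. Its expected counts were 137 and 162 in control libraries 1 and 2, 120 and 130 in PQ libraries 1 and 2, and 130 and 131 in NAC libraries 1 and 2. As FPKM these were 16.6 and 19.1 in the control, 13.7 and 15.9 in the PQ and 14.4 and 15.7 in the NAC libraries. Cdkn2a was thus counted in every library, including both that carry the knockout label, and its mean FPKM lay above that of 57.0% of the genes tested. The tables give 1 value per gene and the labels do not say which part of the locus is deleted, so counts from outside the deleted part cannot check the genotype. On mm9 the gene spans chr4:88920377-88940557 on the minus strand. The first exon of one transcript lies at 88927890-88928096 and that of another at 88940238-88940557, and both transcripts go on to an exon at 88922549-88922889. Cdkn2b, which encodes p15Ink4b, lies at chr4:88952198-88956941 on the same strand, and 11640 bases separate the 2 genes.

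The genes differed in level by a wide margin. Cdkn1b (chr6:134870419-134875531, mm9, plus strand), which encodes p27, was the most abundant of the 9, with 89.0 and 76.2 FPKM in control libraries 1 and 2, 67.4 and 77.4 in PQ libraries 1 and 2, and 81.9 and 82.2 in NAC libraries 1 and 2, and its mean was above that of 91.9% of the genes tested. The PQ and control libraries overlapped in this value. Cdkn1c, which encodes p57, was close to the limit of detection, with expected counts of 9 and 13 in the control libraries, 10 and 3 in PQ libraries 1 and 2, and 12 and 5 in NAC libraries 1 and 2, where 3 counts were taken as the floor. Its FPKM lay between 0.16 and 0.68 in all 6 libraries, and when tested without the filter it was called by edgeR in no comparison.

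The value of Cdkn2a is for the whole gene and can hold Arf as well as Ink4a transcripts, here and in the INK4 sums and shares. The study describes the culture as Ink/Arf null, so whether these counts come from transcripts of an intact inhibitor cannot be told. Within the INK4 family the order in both control libraries was Cdkn2c, Cdkn2d, Cdkn2a and Cdkn2b. In control libraries 1 and 2 the FPKM of Cdkn2c was 34.0 and 32.7, that of Cdkn2d (p19Ink4d) 24.1 and 28.0, and that of Cdkn2b 10.8 and 12.9, with no overlap between neighbours in this order. In the PQ libraries Cdkn2c (20.5 and 22.9) and Cdkn2d (20.9 and 22.3) overlapped, so their order could not be told. In the NAC libraries Cdkn2c stood highest again (36.5 and 40.3), followed by Cdkn2d (19.4 and 23.7), Cdkn2a and Cdkn2b (8.14 and 10.6), without overlap between neighbours.

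Among the pocket proteins the order in both control libraries was Rbl1, Rb1 and Rbl2. The FPKM of Rbl1 was 21.2 and 20.1, that of Rb1 15.5 and 13.8 and that of Rbl2 11.1 and 12.2 in control libraries 1 and 2. In the PQ libraries Rbl1 (14.9 and 14.4) and Rb1 (14.7 and 16.3) overlapped, and Rbl2 stayed lowest (11.1 and 11.2). In the NAC libraries Rbl1 (19.9 and 18.2) was followed by Rbl2 (15.0 and 13.6) and then by Rb1 (12.8 and 11.9). The places of Rb1 and Rbl2 were therefore exchanged between control and NAC libraries, as a description of levels with 2 libraries per group.

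**Figure D1:**
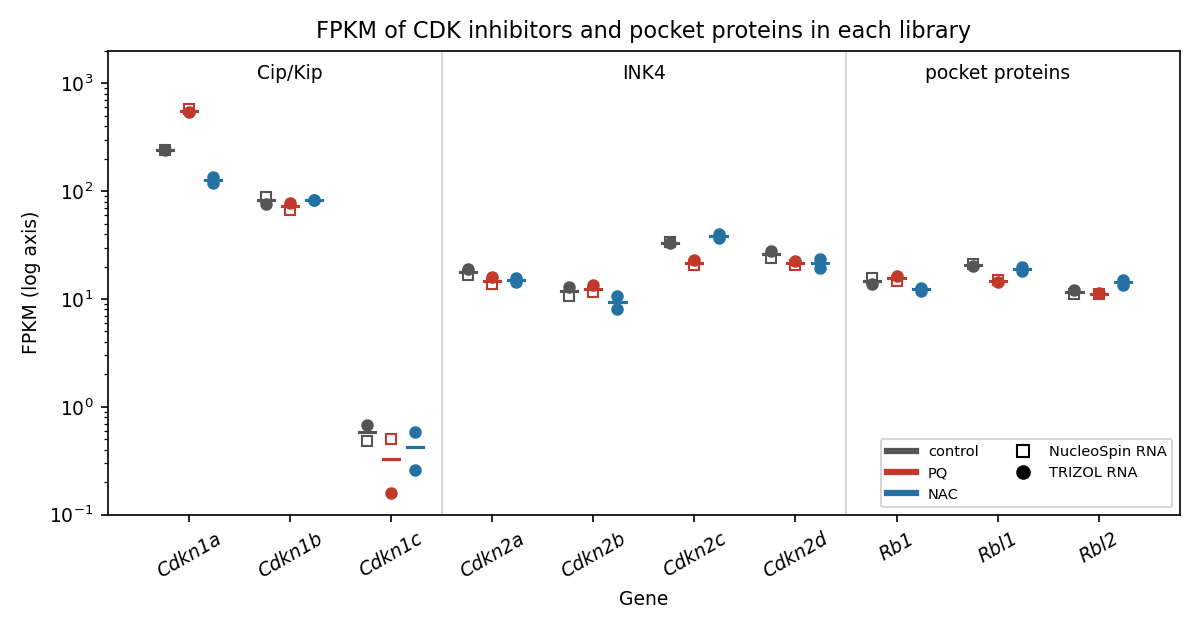
FPKM (log axis) of the 9 genes and of Cdkn1a in each of the 6 libraries, with squares for NucleoSpin and circles for TRIZOL RNA and a bar at the mean of each group of 2. Cdkn2c lies between 20.5 and 22.9 in the PQ libraries and at 32.7 or above in the others, and Cdkn1c lies below 1 throughout.

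PQ was compared with control to see which of the brakes changed under oxidative stress. Cdkn2c and Rbl1 were lower, none of the 8 tested was called higher by edgeR, DESeq2 or limma (3 had an unadjusted edgeR p under 0.05, all lower), and Cdkn1a, the Cip/Kip relative followed beside them, was higher. Thus 2 of the 8 genes tested (25.0%) were called, both lower, beside 19.2% of all genes called (9.45% lower and 9.76% higher), so the count lies near the background. Without PQ library 1 the 2250 genes called in all were 866, whereas Cdkn2c and Rbl1 were still called. The median log2 fold change of the 8 genes was -0.26, and that of all genes tested was -0.001.

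Cdkn2c encodes p18Ink4c, an INK4 inhibitor of CDK4 and CDK6, and lies at chr4:109333481-109339794 (mm9, minus strand). Its expected counts were 368 and 361 in control libraries 1 and 2, 234 and 244 in PQ libraries 1 and 2, and 429 and 439 in NAC libraries 1 and 2. Both PQ libraries lay below all 4 others. After normalization the mean was 376 ± 13.0 in control and 241 ± 22.3 in PQ libraries (SD, n = 2 each), a log2 fold change of -0.65 (SE 0.12, edgeR adjusted p = 0.0012, fold 0.64). Within the NucleoSpin libraries alone the log2 ratio of PQ over control was -0.78, and within the TRIZOL libraries it was -0.52. The call held in each of 15 other settings, with adjusted p between 3.7e-05 and 0.039.

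Rbl1 encodes p107, a pocket protein that binds mainly the repressive E2F4 and E2F5 and is itself known as an E2F target, and lies at chr2:156971629-157030270 (mm9, minus strand). The expected counts were 987 and 920 in control libraries 1 and 2, 703 and 613 in PQ libraries 1 and 2, and 1011 and 851 in NAC libraries 1 and 2. Again both PQ libraries were the lowest, while control and NAC libraries overlapped. The normalized mean was 985 ± 69.6 in control and 660.1 ± 22.2 in PQ libraries (SD, n = 2 each), a log2 fold change of -0.58 (SE 0.10, edgeR adjusted p = 0.00063, fold 0.67). The log2 ratio was -0.61 within NucleoSpin and -0.54 within TRIZOL libraries, and the call held in each of 15 other settings (adjusted p between 4.5e-06 and 0.013). In bulk RNA, fewer cells that express a gene and less RNA per cell cannot be told apart.

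The sequences before the start sites of these genes, the 2 that were lower in PQ, are shown because the pocket proteins act through E2F sites. RefSeq promoter windows (GRCm38.p6, 250 bases before to 50 after a start) were matched for 7 of the 9 genes (all but Cdkn1c and Rb1), 9 windows in all. The letters TTTCGCGC, TTTGGCGC, TTTCCCGC and TTTGCCGC were searched on both strands as E2F motifs, TTTGAA as the cell cycle homology motif of the DREAM complex, and TGTTTAC as a FOXO motif, with no overlap among the matches found. The 250 bases before each start follow, 5′ to 3′ on the minus strand, with E2F motifs in capitals.
Rbl1, chr2:157204535-157204784: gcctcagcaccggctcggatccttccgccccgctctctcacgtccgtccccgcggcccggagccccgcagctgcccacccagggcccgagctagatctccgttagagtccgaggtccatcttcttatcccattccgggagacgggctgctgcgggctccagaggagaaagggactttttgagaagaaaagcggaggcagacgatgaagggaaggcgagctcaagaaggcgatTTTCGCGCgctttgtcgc
Cdkn2c, chr4:109666757-109667006: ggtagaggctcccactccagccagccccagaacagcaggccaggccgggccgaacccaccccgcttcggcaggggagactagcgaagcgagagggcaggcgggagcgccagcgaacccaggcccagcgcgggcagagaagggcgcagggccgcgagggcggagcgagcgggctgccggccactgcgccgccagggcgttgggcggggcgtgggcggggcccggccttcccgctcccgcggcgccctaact
Cdkn2c, chr4:109665373-109665622: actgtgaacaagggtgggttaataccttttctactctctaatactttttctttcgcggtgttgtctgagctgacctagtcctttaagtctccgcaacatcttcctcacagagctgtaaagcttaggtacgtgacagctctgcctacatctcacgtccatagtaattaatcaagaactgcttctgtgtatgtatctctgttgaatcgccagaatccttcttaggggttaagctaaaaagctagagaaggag
The Rbl1 window held TTTCGCGC at positions -18 to -11 from the start, whereas neither window of Cdkn2c held any of the letters searched. Of all 32851 promoter windows of this length, 2.26% held an E2F motif. Among the other genes, the window of Cdkn2a with the outer start held TTTCCCGC at -99 to -92, and TTTGAA was found in the windows of Cdkn2b and Rbl2, a match that 17.9% of all windows hold. TGTTTAC was in none of the 9 windows of the 7 genes matched and in 3.65% of all windows. A match is a description of these letters and no evidence of binding.

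The other 6 genes tested were not called in PQ. Cdkn2d (chr9:21092907-21095653, mm9, minus strand) had expected counts of 298 and 352 in the control and 272 and 271 in the PQ libraries, with a log2 fold change of -0.30 and a 95% interval from -0.58 to -0.01 before adjustment (edgeR adjusted p = 0.14). Cdkn2a had a log2 fold change of -0.29 (interval -0.64 to 0.05, edgeR adjusted p = 0.23). For both genes the PQ libraries lay below the control libraries after normalization, without passing the test. The same held for Rbl2, with normalized counts of 545 and 565 in PQ and 568 and 612 in control libraries 1 and 2. Rb1 (0.06, interval -0.17 to 0.28), Rbl2 (-0.09, interval -0.31 to 0.13) and Cdkn2b (0.05, interval -0.30 to 0.40) had log2 fold changes near 0, and these intervals leave out a 2-fold change in either direction.

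Cdkn1b depended on single libraries. Its expected counts were 2111 and 1841 in control libraries 1 and 2 and 1685 and 1804 in PQ libraries 1 and 2, with a log2 fold change of -0.22 (SE 0.11, edgeR adjusted p = 0.17). The log2 ratio of PQ over control was -0.45 within the NucleoSpin libraries and 0.02 within the TRIZOL libraries, so the difference was not seen within both extractions. Without control library 2 Cdkn1b was called lower (-0.33, adjusted p = 0.038, range over all 15 other settings 0.038 to 0.71).

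Cdkn1a, which encodes p21, a target of p53, moved against the 2 genes that were lower. It had 243 and 242 FPKM in control libraries 1 and 2, 576 and 536 in PQ libraries 1 and 2, and 118 and 136 in NAC libraries 1 and 2, above 98.3% of the genes tested on average. The log2 fold change of PQ against control was 1.17 (SE 0.09, edgeR adjusted p = 2.8e-07), with log2 ratios of 1.20 within NucleoSpin and 1.15 within TRIZOL libraries.

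The makeup of each family shifted accordingly. Cdkn1a made up 73.1% and 75.9% of the summed Cip/Kip FPKM in control libraries 1 and 2 and 89.5% and 87.4% in PQ libraries 1 and 2, whereas Cdkn1b made up 26.8% and 23.9% of the sum in the control and 10.5% and 12.6% of a larger sum in the PQ libraries. The summed Cip/Kip FPKM was 332 and 318 in the control and 644 and 614 in the PQ libraries. The share of Cdkn2c in the INK4 sum was 39.8% and 35.3% in the control and 30.8% in each of the PQ libraries, and the INK4 sum was 85.4 and 92.7 in the control and 66.6 and 74.5 in the PQ libraries. Of the pocket protein FPKM, Rbl1 held 44.3% and 43.6% in the control and 36.6% and 34.3% in the PQ libraries. Shares within a family were described and not tested.

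**Figure D2:**
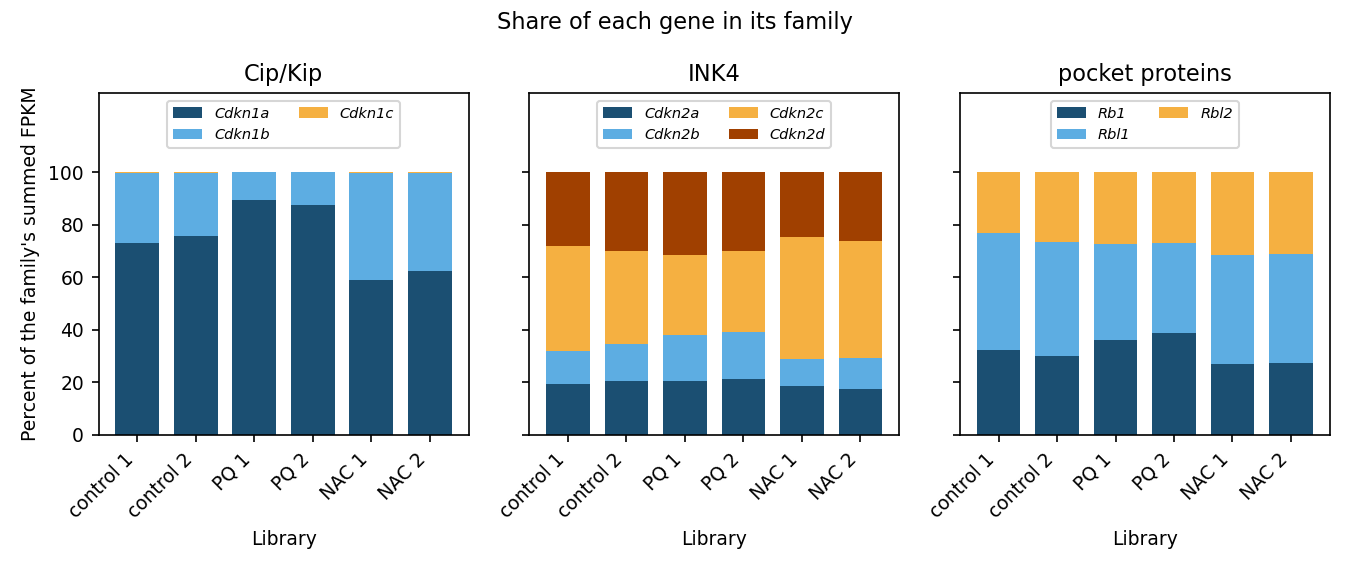
Percent of the summed FPKM of each family held by each gene, as stacked bars for the 6 libraries (Cip/Kip, INK4 and pocket proteins). Of the Cip/Kip sum, Cdkn1a holds 89.5% and 87.4% with PQ but 58.8% and 62.3% with NAC, and Rbl1 holds less of the pocket protein sum in the PQ libraries (36.6% and 34.3%) than in the control libraries (44.3% and 43.6%).

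NAC was compared with control to see whether a reducing agent altered the same genes. None of the 8 genes tested was called by edgeR (0%), beside 18.7% of all genes called (9.01% higher and 9.64% lower). At an unadjusted p under 0.05 the count was 4, namely Cdkn2b, Cdkn2d, Rb1 and Rbl2, and DESeq2 and limma also called 0. Without control library 2 the count was 1, Rb1, and the 2186 genes called in all were 1286 without NAC library 1 and 1427 without NAC library 2. The median log2 fold change was -0.21 over the 8 genes and -0.002 over all genes tested. Both comparisons use the same control libraries, so their values are set side by side only.

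Rb1 encodes RB, the pocket protein that binds the activating E2F factors, and lies at chr14:73583480-73725629 (mm9, minus strand). Its expected counts were 714 and 647 in control libraries 1 and 2, 716 and 738 in PQ libraries 1 and 2, and 638 and 553 in NAC libraries 1 and 2. After normalization both NAC libraries lay below the other 4, with means of 574 ± 31.2 in NAC and 703 ± 63.7 in control libraries (SD, n = 2 each). The log2 fold change of NAC against control was -0.29 (SE 0.11, edgeR adjusted p = 0.068), and it passed the threshold only without control library 2 (-0.38, adjusted p = 0.028, range over the 15 other settings 0.028 to 0.33).

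Rbl2 encodes p130, the pocket protein that is most abundant in quiescent cells, and lies at chr8:93593956-93647743 (mm9, plus strand). It was counted 542 and 602 times in control libraries 1 and 2, 567 and 537 times in PQ libraries 1 and 2, and 791 and 666 times in NAC libraries 1 and 2. Both NAC libraries were the highest of the 6. The log2 fold change of NAC against control was 0.25 (SE 0.10, edgeR adjusted p = 0.10), which did not pass the test.

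The remaining INK4 genes did not pass either. Cdkn2b had expected counts of 146 and 179 in control libraries 1 and 2, 166 and 179 in PQ libraries 1 and 2, and 120 and 145 in NAC libraries 1 and 2, and its log2 fold change in NAC was -0.39 (interval -0.75 to -0.03 before adjustment, edgeR adjusted p = 0.13). Cdkn2d had counts of 260 and 294 in NAC libraries 1 and 2, with a log2 fold change of -0.32 (adjusted p = 0.11). Cdkn2c had a log2 fold change of 0.16 (interval -0.09 to 0.40) and Rbl1 one of -0.13 (interval -0.34 to 0.08). The 2 genes lower in PQ were therefore not called in NAC. Their NAC intervals leave out the PQ estimates themselves, but take no account of the error of those estimates or of the shared control libraries. Cdkn1a was lower in NAC, with a log2 fold change of -0.98 (SE 0.09, adjusted p = 6.1e-07).

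All NAC libraries were made with TRIZOL, so within this extraction only control library 2 stands against them. The log2 ratios over it were -0.14 and -0.25 for Rb1, 0.27 and 0.12 for Rbl2, -0.70 and -0.33 for Cdkn2b, -0.56 and -0.29 for Cdkn2d, and -1.07 and -0.87 for Cdkn1a, in NAC libraries 1 and 2. These 5 kept the direction of the pooled value, as did Cdkn2a (-0.44 and -0.33) and Cdkn2c (0.13 and 0.26). Cdkn1b, at 0.073 and 0.064, had the opposite sign to its pooled -0.06, and Rbl1, at 0.014 and -0.14, had the opposite sign to its pooled -0.13 in NAC library 1, and neither gene was called.

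PQ and NAC were set against each other as opposite ends of the redox treatment. Of the 8 genes tested 4 were called (50.0%), beside 31.6% of all genes. Cdkn2c, Rbl1 and Rbl2 were lower in PQ (37.5% of the genes tested, beside 15.7% of all genes lower), and Rb1 was higher (12.5%, beside 16.0% of all genes higher). The log2 fold change was -0.80 for Cdkn2c (SE 0.12, edgeR adjusted p = 6.1e-05) and -0.44 for Rbl1 (SE 0.10, adjusted p = 0.0027), and both calls held in each of 15 other settings. Without PQ library 2 the count was 2, and the 3708 genes called in all were 2343 without PQ library 1 and 2407 without NAC library 1. For Rbl2 it was -0.34 (SE 0.10, adjusted p = 0.017) and for Rb1 0.35 (SE 0.11, adjusted p = 0.019).

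The calls of Rb1 and Rbl2 were less stable. Rb1 lost its call without PQ library 2 (adjusted p = 0.19), without NAC library 2 (0.13), with the RNA extraction as a covariate (0.052) and with limma on log2(FPKM + 1) or log2(FPKM + 0.1) (0.054 and 0.052), within a range of 0.0073 to 0.19 over all settings. Rbl2 lost its call without PQ library 1 (adjusted p = 0.12), without PQ library 2 (0.067), without NAC library 1 (0.17) and with the extraction as a covariate (0.089), within a range of 0.0083 to 0.17. Within the TRIZOL libraries the log2 ratio of PQ library 2 over NAC libraries 1 and 2 was 0.38 and 0.49 for Rb1 and -0.39 and -0.24 for Rbl2. The direction of both was thus the same within 1 extraction. Cdkn2b, at 0.44 (SE 0.17, adjusted p = 0.059), was not called, but passed in 7 of 15 other settings, among them without control library 1 (0.036), without control library 2 (0.038) and without NAC library 2 (0.038), within a range of 0.032 to 0.41.

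**Figure D3:**
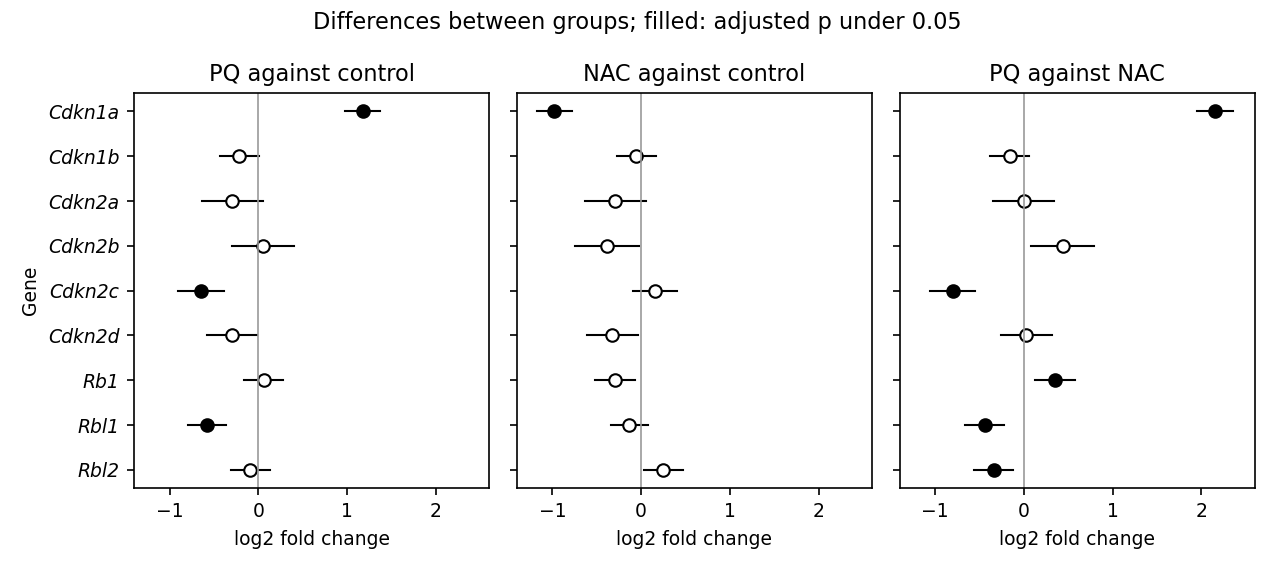
Log2 fold changes of the 8 genes tested and of Cdkn1a in the 3 comparisons, with lines for 95% intervals before adjustment and filled points for an adjusted p under 0.05. Cdkn2c (-0.65 and -0.80) and Rbl1 (-0.58 and -0.44) are filled in both comparisons of PQ, and none of the 8 genes is filled in NAC against control, where Cdkn1a is.

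Other parts of the RB pathway were taken as 6 lists of genes. These lists were chosen with earlier results of these data known, so their counts describe the data and are no independent test. Of the 13 E2F-regulated replication genes, such as those of the MCM helicase, 13 were lower in PQ than in control, with a median log2 fold change of -0.80, and Mcm5 had the largest fall (-0.92, SE 0.10, edgeR adjusted p = 6.7e-06). In NAC 3 of the 13 were higher and 0 lower by edgeR, with 7 at an unadjusted p under 0.05 in either direction and a median of 0.17, whereas DESeq2, and edgeR with DESeq2's size factors, each called 1 lower and limma 0. In PQ against NAC 13 were lower, with a median of -0.999. Without 1 library the count lower in PQ than in control was between 10 and 13, and the count higher in NAC was 1 without control library 1 or NAC library 1 and 5 without control library 2.

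Of the 10 E2F and DP factors, 2 were lower in PQ than in control, E2f8 (-0.96, SE 0.11, edgeR adjusted p = 7.6e-06) and E2f7 (-0.46, SE 0.15, adjusted p = 0.035, between 0.0064 and 0.30 in the other settings). Both encode repressive E2Fs that lack the domain by which most other E2Fs bind pocket proteins. In NAC 3 were higher and 1 lower, and in PQ against NAC 6 were lower. The count in PQ was 1 without either PQ library or without control library 2 and 4 without control library 1, the count higher in NAC fell to 1 without either PQ library or NAC library 2 and to none without control library 1 or NAC library 1, and that in PQ against NAC was 3 without either PQ library or NAC library 1. The count in PQ was also 1 with DESeq2, with limma on either FPKM scale, with the replicate block and with the 4 libraries compared alone. The count higher in NAC was 1 with the block, with the 4 libraries alone and with the extraction as a covariate, and that lower in PQ against NAC was 3 with DESeq2, limma or the extraction, which also gave 1 higher. Of the 7 other genes listed for DREAM and MuvB, which include B-Myb and the kinase gene Dyrk1a, 2 were lower in PQ than in control and 4 in PQ against NAC, and in NAC edgeR, DESeq2 and limma called 0 (0 also at an unadjusted edgeR p under 0.05). Mybl2, which encodes B-Myb, fell most (-1.04, SE 0.13, adjusted p = 2.2e-05). The count in PQ was 1 without PQ library 1 and 4 without control library 2, and that in PQ against NAC was 2 without NAC library 1.

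Of the 10 genes listed as G1 cyclins and kinases, which include the phosphatase gene Cdc25a, 4 were lower in PQ than in control, led by Ccna2 (-0.82, SE 0.10, edgeR adjusted p = 1.2e-05), which encodes cyclin A2. In NAC 1 was higher and 1 lower, and in PQ against NAC 4 were lower, with between 3 and 5 in the settings that leave out no single library. The count in PQ fell without PQ library 1, PQ library 2 or control library 2, and rose without control library 1. With limma on either FPKM scale the count in PQ was 2. In NAC the count higher fell to none without control library 1, without NAC library 1 or with the extraction as a covariate, was 3 without control library 2 or with no filter on low values, and was 2 with the crossed replicate block, which was chosen after seeing the data, and the count lower fell to none without NAC library 1 and was 2 without control library 1.

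Of 6 genes for the turnover of p27, 2 were lower in PQ than in control and 2 in PQ against NAC. In NAC edgeR, DESeq2 and limma called 0, with 1 at an unadjusted edgeR p under 0.05, and edgeR called 1 higher without control library 2. Cks1b, the cofactor of SKP2, had a log2 fold change of -0.52 (SE 0.11, edgeR adjusted p = 0.0023), which was lost without PQ library 1 (adjusted p = 0.072, the highest of the 15 other settings, the lowest being 0.00012). Skp2, the F-box protein that targets p27, had one of -0.40 (SE 0.13, adjusted p = 0.040), and its call was lost without PQ library 1 (0.19), without PQ library 2 (0.13), without control library 2 (0.43) and without NAC library 1 or 2 (0.054 and 0.056). It was also lost with DESeq2 (adjusted p = 0.088), with limma on log2(FPKM + 1) and log2(FPKM + 0.1) (0.13 and 0.12), with the replicate block (0.060) and with the 4 libraries alone (0.058), within a range of 0.0023 to 0.43. The list's count in PQ thus fell to none without PQ library 1, where both calls were lost, and to 1 in each of the other settings in which Skp2 was lost. In PQ against NAC Skp2 was at -0.71 (adjusted p = 0.00035).

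Of 8 genes listed for the ARF-p53 axis and Ink4a/Arf repression, which include 3 FOXO factors, 1 was higher and 1 lower in PQ than in control. Mdm2, a p53 target whose product p19Arf binds, was higher in PQ (0.66, SE 0.10, edgeR adjusted p = 0.00014) and lower in NAC (-0.45, SE 0.10, adjusted p = 0.0035), the directions of Cdkn1a. Ezh2, a Polycomb enzyme known to hold back Cdkn2a, was lower in PQ (-0.62, SE 0.10, adjusted p = 0.00020). In NAC 2 were higher and 1 lower, and 2 were higher and 3 lower in PQ against NAC. Without control library 2 the count higher in PQ was 2, without NAC library 2 the count higher in NAC fell to none and without any other library but control library 2 it was 1, and without NAC library 1 the count higher in PQ against NAC was 1. The count higher in NAC was also 1 with the extraction as a covariate, with the replicate block and with the 4 libraries compared alone. All list counts are read beside the shares of all genes called that are given above.

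**Figure D4:**
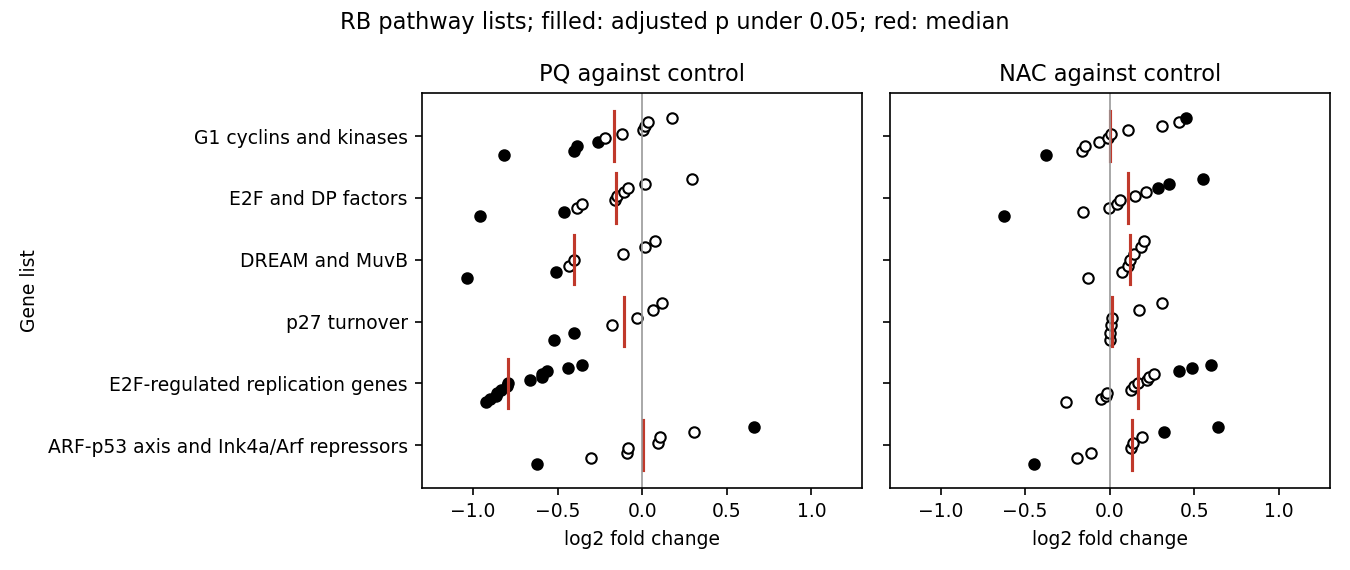
Log2 fold changes of the genes of 6 RB pathway lists in PQ against control (left) and NAC against control (right), 1 point per gene, filled at an adjusted p under 0.05, with a red line at the median of each list. The 13 replication genes lie left of 0 in PQ with a median of -0.80, and in NAC their median is 0.17.

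Markers were read to check the labelled cell type. The 7 markers of neural stem cells and radial glia summed to 3342 and 3400 FPKM in control libraries 1 and 2, 3684 and 3741 in PQ libraries 1 and 2, and 2616 and 2536 in NAC libraries 1 and 2, with Vim the most abundant and Prom1 the 1 marker below the filter. Vim held most of each sum, with 2171 and 2323 in the control, 2547 and 2647 in the PQ and 1362 and 1389 in the NAC libraries. Fabp7, the next most abundant, was at 800 and 741, 816 and 775, and 913 and 803 in the same order. It was called in neither comparison with control. In NAC against control 1 of the 6 tested was higher and 3 were lower, and in PQ against control 1 was higher and 2 were lower. The 6 markers of the oligodendrocyte lineage summed to 651 and 753 in the control, 767 and 666 in the PQ and 815 and 924 in the NAC libraries, with Olig1 the most abundant on average over the 6 libraries (320.4 beside 320.7 for Olig2 in control library 1), and 2 of the 3 tested were higher in NAC. Of the other 3, Cspg4 was between 0.67 and 0.95, Mbp between 0.1 and 0.63 and Sox10 under 0.1 in every library.

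Markers of differentiated cells were low apart from Map2, and some of them differed between the groups. The 5 neuronal markers summed to 38.4 and 35.9 FPKM in control libraries 1 and 2, 33.8 and 34.8 in PQ libraries 1 and 2, and 65.6 and 59.4 in NAC libraries 1 and 2, almost all of it Map2, the 1 neuronal marker tested, which was higher in NAC. Tubb3, below the filter and not tested, was at 2.38 and 1.3 in the control, 0.72 and 0.47 in the PQ and 0.32 and 0.44 in the NAC libraries, opposite in direction to Map2 in NAC, and Dcx and Rbfox3 were under 0.1 in every library. The 4 astrocyte markers summed to 4.39 and 4.63 in the control, 6.75 and 6.02 in the PQ and 9.64 and 9.53 in the NAC libraries. Gfap was called higher in NAC, where it was the most abundant (4.07 and 5.14). Aqp4 was at 0.79 and 0.7 in the control, 0.54 and 0.83 in the PQ and 2.66 and 2.56 in the NAC libraries. It passed the filter only through the NAC libraries, so its call as higher there is no test. Aldh1l1 was called higher in PQ, where it was the most abundant (3.28 and 2.36), and was not called in NAC (-0.49, edgeR adjusted p = 0.31). The sums for microglia and blood, endothelial cells, and fibroblasts and mural cells were at most 1.15, 0.54 and 0.64 FPKM in any library. What part these shifts had in the values of the CDK inhibitors and pocket proteins was not tested.

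Genes with the most similar pattern were looked up for the 2 genes lower in PQ. Across the 6 libraries Pearson's r of log2 normalized counts with Cdkn2c was 0.996 for Ptma and 0.995 for Cenpa, and with Rbl1 it was 0.999 for Alyref2 and 0.995 for Pitrm1. These are the highest values among all genes tested over 6 points that fall in 3 treatments, so they are descriptions and carry no test.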

How the data were processed

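RNA-seq libraries of cultured mouse NSPCs were used, 2 each of control, PQ and NAC at 48 h. The authors deposited, per gene and library, an expected count and an FPKM. The submitters' notes name TopHat2 2.0.11, Cufflinks 2.1.1 and mm9 for control library 1 and PQ library 1, and HISAT2 2.0.4, Bowtie2 2.2.5, RSEM and mm10 for the others. The columns are of RSEM's type in all 6 tables, and use of strand in counting is not given in the sources used here. Genes left out of a table were taken as 0. Of 17254 genes, 99.7% carried a symbol.

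Expected counts were rounded and tested with edgeR 4.0.16 (R 4.3.3, TMM, quasi-likelihood) over all 6 libraries with no covariate, on the 11717 genes whose FPKM averaged 1 or more, all of which entered the Benjamini-Hochberg adjustment. The procedure was tested on simulated data. SE is the absolute log2 fold change over the square root of F. Intervals are 95%, before adjustment. DESeq2 1.42.0, limma 3.58.1 on log2(FPKM + 1) and log2(FPKM + 0.1), no filter, RNA extraction as a covariate, a replicate block, the 4 libraries compared alone, and leaving out each library were alternatives. Positions came from GENCODE on mm9, promoters from RefSeq on GRCm38.p6. All 9 genes are named. Of each pathway list up to 3 called genes with the largest change in PQ are named, and Cdkn1a and Skp2 always. The members and lists were chosen with earlier results of these data known.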

Additional observations from a re-analysis of the deposited data

How the results depend on the processing

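Cdkn2c and Rbl1 kept their direction and their call in PQ against control and in PQ against NAC under all 15 alternatives. The alternatives refit the same libraries and are not independent checks. The RNA extraction and the replicate block split the control and PQ libraries in the same way. Leaving out 1 library at a time gave between 866 and 2206 genes called in PQ against control, 1286 and 2126 in NAC against control and 2343 and 4207 in PQ against NAC, and between 0 and 1 (NAC against control) and 2 and 5 (PQ against NAC) of the 8 genes tested. A group left with 1 library was assumed to vary like the others, and fewer libraries were fitted by construction. Signs changed only for uncalled values near 0. In PQ against control, leaving out 1 library took the log2 fold change of Cdkn2b from -0.071 to 0.18 and that of Rb1 from -0.032 to 0.15. It took Cdkn1b in NAC against control from -0.17 to 0.068, and in PQ against NAC Cdkn2a from -0.13 to 0.12 and Cdkn2d from -0.10 to 0.17. With the RNA extraction as a covariate Cdkn2a in PQ against NAC was 0.10. The cause was not tested. Of the refitted values of the 8 genes, 332 kept direction and call, 9 gained a call, 9 lost one and 10 changed sign. With the replicate block, in sets read from the study's source data, 1798, 1804 and 3243 genes were called in PQ against control, NAC against control and PQ against NAC. Deviations of libraries of 1 set correlated at -0.08 (control and PQ), -0.15 (control and NAC) and 0.11 (PQ and NAC), so these sets were not taken as pairs. The sets put control 1 with PQ 1 and NAC 2, so they do not follow the library numbers for NAC. With the NAC libraries crossed, an alternative chosen after seeing the data, 2209, 2152 and 3662 genes and 2, 0 and 5 of the 8 were called. With DESeq2 1673, 1695 and 2944 genes were called. Pathway genes and lists were refitted after seeing the data. Cdkn1c, at 9 to 13 control counts, was fitted only with no filter, and its intervals were wide. In PQ against control its log2 fold change was -0.80 (interval -2.07 to 0.48, edgeR adjusted p = 0.52).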

Other observations

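Rbl1 was listed with 2 transcripts, and its deposited length, which weights them by abundance, was 4692 and 4533 bases in control libraries 1 and 2, 4510 and 4374 in PQ libraries 1 and 2, and 4723 and 4676 in NAC libraries 1 and 2. The PQ libraries had the shortest values of the 6. The length of Cdkn2a, also with 2 transcripts, lay between 863 and 870 bases in every library.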
